A study of Homo sapiens with 2 samples.

Results

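The genes described here are 6 nuclear metallothionein genes (MT2A, MT1E, MT1F, MT1G, MT1M and MT1X) and MTF1, which encodes their transcriptional activator. They were taken by name from the symbol assigned to each Ensembl ID, and all 7 were found among the 58884 genes listed. They are unrelated to the genes of the mitochondrial genome, whose symbols begin with MT followed by a hyphen. RNA came from T24/R, an adherent line from the urinary bladder that the series title places among chemoresistant urothelial carcinoma models. Cells received the solvent DMSO for 6 h in one group and 1600 nM THZ1 for 6 h in the other, in the same serum-containing medium. THZ1 is a covalent inhibitor of CDK7, the kinase of the transcription factor TFIIH. It also acts on CDK12 and CDK13. Each group had 1 library, so nothing below is checked against replicates and no p-values are given.

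Metallothioneins are very small cytosolic proteins rich in cysteine, which bind zinc and copper and also take up cadmium and other toxic metals. MTF1 is a zinc finger protein that senses free zinc, moves to the nucleus and binds metal response elements in the promoters of metallothionein genes, where it works with the coactivators p300 and CBP and with SP1. Besides metals, glucocorticoids and oxidative stress induce MT2A, and metallothioneins have been studied in bladder cancer for their binding of cisplatin.

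The 6 metallothionein genes lie together on chromosome 16 of GRCh38. By GENCODE 29, MT2A (ENSG00000125148) occupies chromosome 16 from 56608199 to 56609497, MT1E (ENSG00000169715) from 56625475 to 56627112 and MT1X (ENSG00000187193) from 56682424 to 56684196, all on the plus strand. Between MT1E and MT1X lie MT1M (56632233 to 56633986), MT1F (56657694 to 56660698) and, on the minus strand, MT1G (56666731 to 56668065). MTF1 (ENSG00000188786) is on the minus strand of chromosome 1 from 37809567 to 37859620. It spans 50054 bases, whereas MT2A spans 1299.

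The family members resemble each other so closely that the assignment of reads matters to every value below. Each coding sequence of 186 bases is shown 5′ to 3′ from the annotated GENCODE 29 transcript, with capitals where a base differs from MT2A at the same position.
MT2A: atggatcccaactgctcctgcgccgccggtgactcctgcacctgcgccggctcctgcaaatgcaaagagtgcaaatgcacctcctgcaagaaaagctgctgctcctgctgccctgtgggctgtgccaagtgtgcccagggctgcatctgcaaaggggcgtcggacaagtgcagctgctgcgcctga
MT1E: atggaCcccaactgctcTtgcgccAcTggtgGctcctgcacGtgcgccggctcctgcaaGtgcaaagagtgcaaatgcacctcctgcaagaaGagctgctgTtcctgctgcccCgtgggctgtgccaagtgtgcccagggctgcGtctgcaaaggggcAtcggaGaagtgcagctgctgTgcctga
MT1X: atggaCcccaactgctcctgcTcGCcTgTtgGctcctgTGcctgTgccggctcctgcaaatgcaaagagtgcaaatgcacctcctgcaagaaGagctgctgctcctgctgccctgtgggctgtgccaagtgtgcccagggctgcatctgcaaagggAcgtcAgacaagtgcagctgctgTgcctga
MT1F: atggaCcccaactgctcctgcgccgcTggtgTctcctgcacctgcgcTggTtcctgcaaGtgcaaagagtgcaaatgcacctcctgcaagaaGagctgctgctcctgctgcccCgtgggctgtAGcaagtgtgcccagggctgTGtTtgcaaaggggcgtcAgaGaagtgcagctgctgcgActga
MT1G: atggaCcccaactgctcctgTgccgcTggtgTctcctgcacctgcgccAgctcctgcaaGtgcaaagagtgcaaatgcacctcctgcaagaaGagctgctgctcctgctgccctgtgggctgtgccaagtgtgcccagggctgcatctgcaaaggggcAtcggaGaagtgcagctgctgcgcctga
MT1M: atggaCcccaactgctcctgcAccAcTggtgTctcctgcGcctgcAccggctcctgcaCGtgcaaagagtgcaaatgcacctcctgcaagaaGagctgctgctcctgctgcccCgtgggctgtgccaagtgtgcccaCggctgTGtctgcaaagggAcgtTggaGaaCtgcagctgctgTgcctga
MT1G differs from MT2A at 9 positions (95.2% identity) and MT1M at 19 (89.8%), with MT1E and MT1X at 14 each. Whole annotated transcripts were compared by the stretches they share. Of all stretches of 50 bases in the annotated transcripts of MT2A, 97.0% occur in no other gene's transcripts, and the share is 92.9% for MT1E, 81.7% for MT1X, 98.8% for MT1F, 83.5% for MT1G and 90.1% for MT1M. With stretches of 100 bases it is 100% for each of these except MT1X, at 88.7%, because 18.1% of the exonic bases of MT1X also belong to AC026461.1, a noncoding gene on the same strand that had 0 counts in both libraries. These shares pool every annotated transcript of a gene and seek exact matches in other annotated transcripts only. They were not computed for the coding part alone or against the genome, so reads of the spliced mRNA may be less unique. Neither the read length nor the rule for reads with more than 1 match is named in the labels or files, so the metallothionein counts are uncertain to that extent.

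Promoter sequences are shown because metal response elements are where MTF1 binds. The RefSeq table (GRCh38.p14) held windows from 250 bases before to 50 after the start for MT2A, MT1X and MTF1. The metal response element core was searched on both strands as TGCACNC and TGCGCNC, and matches are in capitals in the 250 bases before each start, printed 5′ to 3′ on the strand of the gene (MT2A chr16:56608334-56608583, MT1X chr16:56682220-56682469, MTF1 chr1:37859593-37859842).
MT2A: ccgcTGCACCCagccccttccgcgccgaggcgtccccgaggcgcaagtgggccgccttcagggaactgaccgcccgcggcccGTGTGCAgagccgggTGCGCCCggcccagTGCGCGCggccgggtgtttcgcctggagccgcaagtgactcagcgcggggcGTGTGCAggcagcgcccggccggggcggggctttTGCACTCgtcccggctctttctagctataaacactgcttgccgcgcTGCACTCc
MT1X: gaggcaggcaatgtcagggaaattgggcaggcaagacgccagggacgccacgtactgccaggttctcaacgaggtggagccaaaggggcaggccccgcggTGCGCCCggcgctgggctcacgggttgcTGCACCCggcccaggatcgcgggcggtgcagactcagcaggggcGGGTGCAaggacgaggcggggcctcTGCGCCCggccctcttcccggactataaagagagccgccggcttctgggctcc
MTF1: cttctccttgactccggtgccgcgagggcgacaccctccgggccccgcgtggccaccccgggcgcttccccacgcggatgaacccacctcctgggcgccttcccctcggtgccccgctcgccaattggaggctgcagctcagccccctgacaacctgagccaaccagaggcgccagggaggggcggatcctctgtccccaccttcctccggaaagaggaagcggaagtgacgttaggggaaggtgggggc
The MT2A window held 8 matches, of which 1 lies after the start and is not printed. The MT1X window held 4, and that of MTF1 held 0. The windows of MT1H, MT1B and MT4, which had 0 counts in both libraries, held 8, 3 and 3. Among 35116 windows of this length, 29.6% held at least 1 match, 0.601% at least 4 and 0.0740% at least 6. MT2A and MT1X each also held 1 TATAAA (11.5% of all windows), 2 GGGCGG (at least 1 in 45.0% of windows) and 1 TGACNNNGC, the antioxidant response element core (13.3%), and in MT1X 1 GGGCGG overlaps a metal response element core. MTF1 held 1 GGGCGG and none of the others. These matches are letters in a sequence and not measured binding.

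The DMSO library held 18445831 counts and the THZ1 library 18313827. A gene was tested when it had 30 or more counts in at least 1 library, which left 12457 genes with a median log2 ratio of THZ1 over DMSO of −0.03 and quartiles at −0.83 and 0.55. Ratios are relative to TMM-scaled library sizes, and the call used throughout needs a change of at least 2-fold and a 95% counting interval without 1 in it, which made 21.3% of tested genes lower and 9.70% higher. Scaling to total counts moves each log2 ratio by −0.51 and scaling to the mitochondrially encoded mRNAs by −1.69, so a sign near 0 depends on the reference. Epithelial markers were sparse for a urothelial line: of 17, 4 were tested (KRT18 with 696 and 494 counts in DMSO and THZ1, KRT8 with 77 and 100, TP63 with 61 and 34, FOXA1 with 129 and 21). CDH1 had 2 and 3 counts, EPCAM 0 and 3, and UPK1B, UPK3A and KRT20 had 0 in both. Mesenchymal markers were abundant, VIM having 63269 and 84532 counts, while 9 markers of leukocytes, endothelium, muscle and fibroblasts summed to 74 and 52. The part of these differences in the results below was not tested.

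After 6 h of THZ1 the metallothionein mRNAs stayed close to the bulk of the transcriptome while the mRNA of their activator was 4.99-fold lower. Of the 7 genes, 4 had enough counts to be tested. MTF1 was lower and MT2A, MT1E and MT1X were neither lower nor higher, beside 21.3% lower and 9.70% higher among all tested genes. MT1F, MT1G and MT1M had 0 or 1 count.

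MT2A, the metallothionein most widely expressed in human tissues, had 4585 counts in DMSO and 3553 in THZ1. On the TMM scale this was 208 CPM (202 to 214) in DMSO and 232 (224 to 240) in THZ1, where CPM is the usual depth-scaled count, taken here over the TMM-scaled library size. The log2 ratio was 0.16 (0.09 to 0.22), and it turns to −0.36 with total counts and to −1.53 on the mitochondrial reference. The intervals of both libraries do not overlap, THZ1 being the higher one on this scale, but they cover counting error only and the ratio is far below 2-fold. Of the tested genes, 58.0% had a lower ratio.

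MT1E, a metal-inducible member of the MT1 group, had 1379 and 815 counts, or 62.5 CPM (59.3 to 65.9) in DMSO and 53.2 (49.6 to 57.0) in THZ1. Its log2 ratio was −0.23 (−0.36 to −0.11), with THZ1 lower by 1.18-fold. MT1X, another MT1 gene, had 129 and 83 counts, 5.85 CPM (4.88 to 6.95) and 5.42 (4.31 to 6.72). Its ratio of −0.11 (−0.53 to 0.30) has an interval on both sides of 0 on the TMM scale. With total counts the ratios of MT1E and MT1X became −0.75 and −0.62 (−1.04 to −0.22 for MT1X, which leaves out 0), both within 2-fold. On the mitochondrial reference they were −1.92 and −1.80, and MT2A, MT1E and MT1X were then called lower, as were 80.3% of all tested genes.

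**Figure D1:**
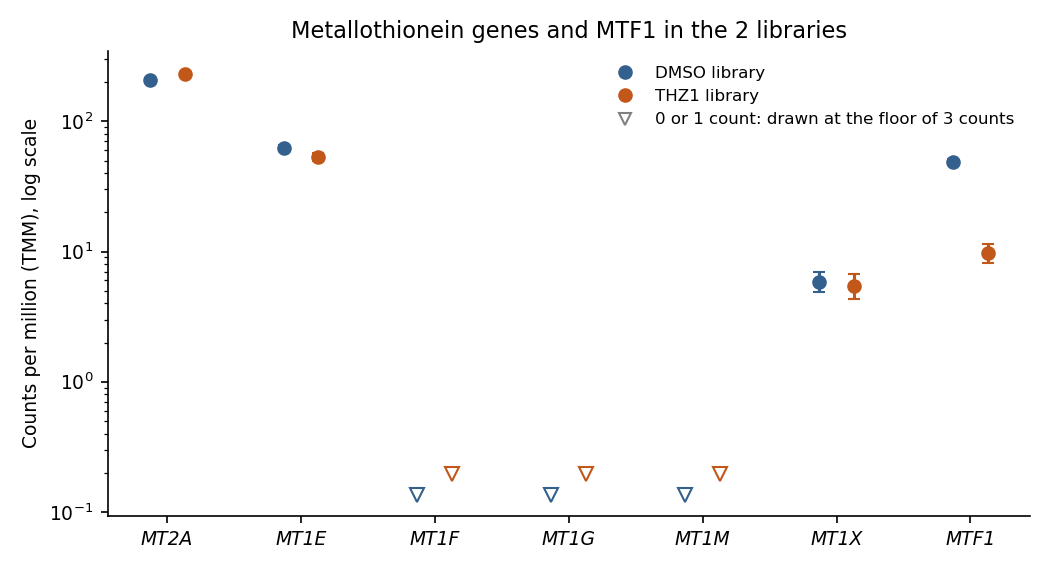
CPM on the TMM scale (log axis) for each member in the DMSO and THZ1 libraries; points are single libraries, bars are exact Poisson 95% intervals, and open triangles mark genes with 0 or 1 count at the floor of 3 counts. MTF1 drops from 48.7 to 9.73 while MT2A, MT1E and MT1X lie at nearly the same height in both libraries.

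Per length, MT2A was the most abundant of the family. The TMM-scaled counts were divided by kilobases of exon, which gave 160 CPM per kilobase (155 to 165) in DMSO and 179 (173 to 184) in THZ1, and stood at rank 117 of the 12457 tested genes in DMSO and at rank 175 in THZ1. MT1E followed with 59.5 (56.4 to 62.7) and 50.6 (47.2 to 54.2), and MT1X with 3.30 (2.75 to 3.92) and 3.06 (2.43 to 3.79). No neighbours in this order had overlapping intervals in either library, but these intervals leave out any error in the length. The order was the same when the longest transcript was used as length (903 bases for MT2A, 729 for MT1E and 1727 for MT1X). This is a weak check, because for MT1X that length is nearly the whole span of the gene. By exon length MT2A stood 2.69-fold above MT1E in DMSO and 3.53-fold above it in THZ1. With the annotated exons as length, MTF1 was above MT1X in DMSO, at 6.07, and below it in THZ1, at 1.21. Those exons together cover the whole span of MT1X (1773 bases) and of MT2A (1299), so no intron is left out. For MTF1 they cover 8024 of 50054 bases. The order of MTF1 and MT1X may therefore depend on the length used. The same holds for the levels, ranks and folds per length of the metallothioneins. Shorter lengths were not tried.

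The remaining metallothioneins had no counts or nearly none assigned to them. MT1F and MT1G had 0 counts in both libraries and MT1M had 0 and 1, which is below the floor of 3 counts (0.136 CPM in DMSO and 0.196 in THZ1), so no ratio is given. Pooled over all annotated transcripts, most 50-base stretches of these genes are their own, as given above. How many of the unshared stretches lie in the spliced mRNA was not examined, and no such shares were computed for the further metallothioneins below. Among 16 further metallothionein genes and pseudogenes listed (MT1A, MT1B, MT1H, MT3, MT4 and others), 15 were found in the files. Of these, 13 had 0 counts in both libraries, and the pseudogenes MT1P1 and MT2P1 had 1 count in 1 library each. Expression of the family in these cells was therefore read from 3 genes.

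Within the family the balance differed slightly between the libraries, in a measure that no scaling can change. MT2A made up 75.3% of the 6093 metallothionein counts in DMSO (74.1 to 76.3, exact Clopper-Pearson) and 79.8% of the 4452 in THZ1 (78.6 to 81.0). MT1E took 22.6% (21.6 to 23.7) and 18.3% (17.2 to 19.5), and MT1X 2.12% (1.77 to 2.51) and 1.86% (1.49 to 2.31). The count ratio of MT2A to MT1E was 3.32 in DMSO and 4.36 in THZ1, a change of 1.31-fold (1.19 to 1.45). For MT2A against MT1X the change was 1.20-fold (0.904 to 1.61) and for MT1E against MT1X 0.919-fold (0.682 to 1.24), and both intervals include 1. Summed, the 6 genes had a log2 ratio of 0.07 (0.02 to 0.13), which turns to −0.44 with total counts. Without MT2A the sum had a ratio of −0.22 (−0.34 to −0.10).

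The activator gene MTF1 differed far more between the libraries than the 3 tested metallothioneins. It had 1074 counts in DMSO and 149 in THZ1, or 48.7 CPM (45.8 to 51.7) and 9.73 (8.23 to 11.4), and these intervals are well apart. Its log2 ratio was −2.32 (−2.58 to −2.08), and 5.00% of the tested genes had a lower one. Among the 4134 tested genes whose DMSO count was within 2-fold of that of MTF1, 159 had a lower ratio and 20.4% were called lower. The call held under each of the 5 scalings tried, from −2.29 with DESeq2 size factors to −4.01 on the mitochondrial reference. A processed pseudogene on the opposite strand, AL929472.4, lies within MTF1 but shares 0 exonic bases with it and had 1 count in each library.

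**Figure D2:**
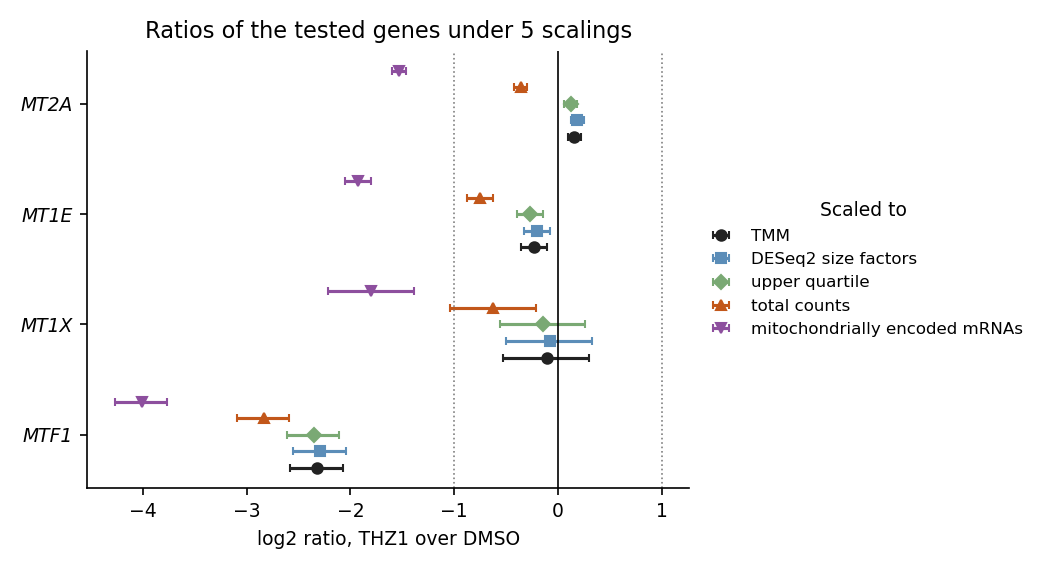
log2 ratio of THZ1 over DMSO for the 4 tested members (rows) under 5 scalings (symbols), with 95% counting intervals; dotted lines mark 2-fold. MTF1 lies left of −2 with each scaling, whereas MT2A ranges from 0.19 to −1.53.

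The gap between the metallothioneins and MTF1 does not depend on scaling. There were 4.27 counts of MT2A per count of MTF1 in DMSO and 23.8 in THZ1, a change of 5.58-fold (4.67 to 6.71). The same change was 4.26-fold (3.51 to 5.20) for MT1E and 4.63-fold (3.30 to 6.49) for MT1X. All 3 intervals lie above 3-fold. They describe these 2 libraries, since the spread between cultures was not measured.

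**Figure D3:**
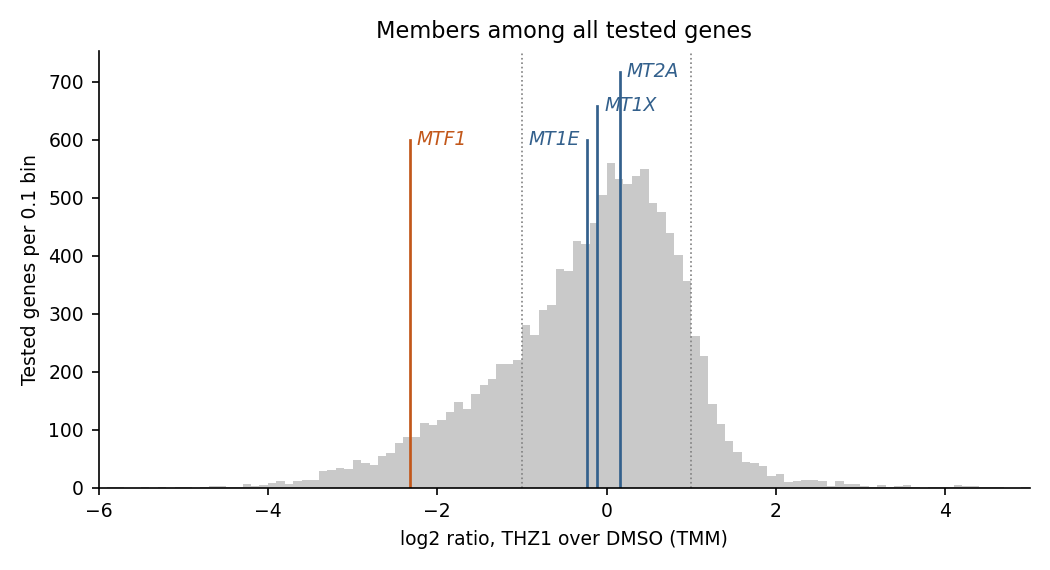
Histogram of the log2 ratio of THZ1 over DMSO for 12457 tested genes in bins of 0.1, with vertical lines at MT2A (0.16), MT1X (−0.11), MT1E (−0.23) and MTF1 (−2.32); dotted lines mark 2-fold. The 3 metallothioneins sit in the body of the distribution and MTF1 in its lower tail.

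Genes other than metallothioneins that have been linked to MTF1 were divided. Of 10 listed, 8 were tested, of which 3 were lower, 0 higher and 5 neither. Their median log2 ratio was −0.25 beside −0.03 for all tested genes, and 37.5% were lower beside 21.3%. SLC30A1, which encodes the zinc exporter ZnT1 of the plasma membrane and is the best known of these targets, had 1585 counts in DMSO and 322 in THZ1, 3.42-fold lower (log2 ratio −1.77, −1.95 to −1.60). GCLC, the catalytic subunit of the first enzyme of glutathione synthesis, had 1127 and 215 counts and was 3.64-fold lower. PGF, which encodes placental growth factor, had only 51 and 3 counts, a ratio of −3.35 (−5.89 to −1.93). SLC39A10, a zinc importer that MTF1 is known to repress, had 1085 and 1463 counts and a ratio of 0.96 (0.84 to 1.07), short of 2-fold, with 0.44 on total counts and −0.73 on the mitochondrial reference. CSRP1 (−0.33), SELENOW (−0.17), SELENOH (0.19) and NDRG1 (0.47) were within 2-fold, and SLC30A2 and HAMP had 0 counts in both libraries. MT2A and SLC30A1, both regarded as direct MTF1 targets, thus had ratios of 0.16 and −1.77 in the same pair of libraries.

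The partners of MTF1 and other regulators of metallothionein genes were mostly lower. Of 8 listed and tested, 6 were lower, 0 higher and 2 neither (75% lower beside 21.3% of all tested genes), with a median of −1.59. The coactivator gene EP300, which encodes p300, had 3359 and 528 counts (−2.14, −2.28 to −2.01), and CREBBP, which encodes CBP, had 1898 and 316 (−2.06, −2.24 to −1.89). SP1, the GC box factor, had 2591 and 645 counts (−1.48), NR3C1, the glucocorticoid receptor gene, 2506 and 620 (−1.49), and USF1, an E-box factor, 373 and 80 (−1.69). The oxidative stress regulator NFE2L2 had a ratio of −2.32, the same as MTF1 at this precision. STAT3, with 2232 and 1978 counts (0.35, 0.26 to 0.44), and USF2, with 914 and 849 (0.42, 0.28 to 0.56), were neither, and both fall below 0 with total counts (−0.16 and −0.10) and on the mitochondrial reference (−1.34 and −1.27).

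Zinc transporters, which carry zinc across the plasma membrane and the membranes of organelles, did not share a direction. Of the 10 SLC30 genes, whose products carry zinc out of the cytosol, 6 were tested, of which 2 were lower, 0 higher and 4 neither (median −0.28), beside 21.3% lower and 9.70% higher of all tested genes. Beside SLC30A1 this was SLC30A4, an exporter into vesicles, with 525 and 115 counts (−1.66, −1.97 to −1.37). SLC30A7, of the secretory pathway, had 4677 and 2193 counts (−0.57) and SLC30A9, linked to mitochondria, 3482 and 4166 (0.78, and −0.91 on the mitochondrial reference). With total counts the ratio of SLC30A7 was −1.08, and 3 SLC30 genes were then lower, beside 34.2% of all tested genes. Of the 14 SLC39 genes, whose products bring zinc into the cytosol, 9 were tested, of which 1 was lower, 1 higher and 7 neither (median 0.04), counts near those shares. SLC39A6 had 4397 and 7439 counts and was 2.43-fold higher (1.28, 1.23 to 1.34), a ratio that is 0.77 with total counts and −0.41 on the mitochondrial reference. SLC39A8, which also carries cadmium and manganese, had 4476 and 6117 counts (0.98, 0.92 to 1.03), just short of 2-fold. Its ratio was 1.01 with DESeq2 size factors, where it was called higher, 0.46 with total counts and −0.71 on the mitochondrial reference. SLC39A3, with 92 and 25 counts, was lower (−1.33, −2.05 to −0.70). Its call was not made when the interval bound itself had to pass 2-fold or with a count minimum of 100. With total counts 2 SLC39 genes were lower and 0 higher, beside 34.2% and 2.95% of all tested genes.

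**Figure D4:**
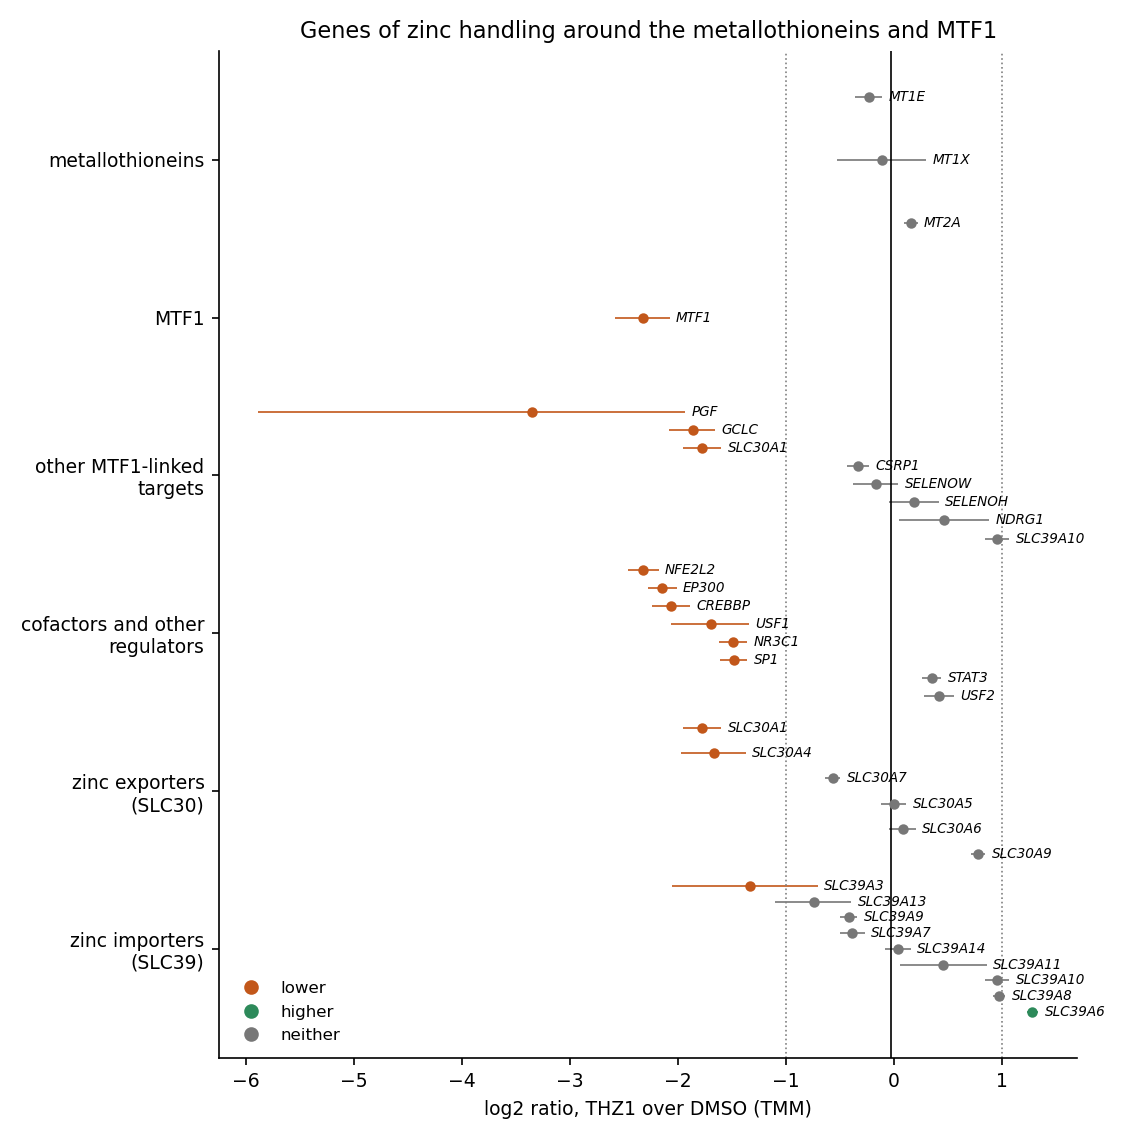
log2 ratio of THZ1 over DMSO (TMM) of the tested genes of each list with 95% counting intervals; orange genes were called lower, green higher and grey neither, the solid line is the median of all tested genes (−0.03) and dotted lines mark 2-fold. MTF1 and 6 of the 8 genes listed as its cofactors or as other metallothionein regulators lie left of −1. The 3 metallothioneins lie near the solid line, and SLC30A1 and SLC39A10 appear in 2 lists each.

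Genes next to the members on the chromosome were compared as well. The 4 tested coding genes reported here within 200 kb of the metallothionein cluster (NUDT21, OGFOD1, BBS2 and NUP93) all stayed within 2-fold (median 0.20). Among all tested genes 21.3% were lower and 9.70% higher. NUDT21, a subunit of the cleavage factor for mRNA 3′ ends, had the highest ratio of the 4 (0.79, with 3356 and 4028 counts) and the nucleoporin gene NUP93 the lowest (−0.41, with 1284 and 673). On the mitochondrial reference 3 of the 4 were called lower, as were 80.3% of all tested genes. Of 9 tested coding genes within 200 kb of MTF1, the call was lower for 1, higher for 0 and neither for 8 (median −0.63), beside 21.3% lower and 9.70% higher of all tested genes. The lower gene was CDCA8, which encodes the chromosomal passenger protein borealin, with 924 and 121 counts (−2.40, −2.69 to −2.13). C1orf109 (803 and 279 counts) stood just inside 2-fold at −0.998. With total counts 5 of the 9 were lower, beside 34.2% of all tested genes on that scale. INPP5B, an inositol phosphatase gene 1.08 kb from the start of MTF1, had a ratio of −0.41 (−0.60 to −0.22), and C1orf122, which faces the 3′ end of MTF1 from the other strand, had 95 and 104 counts (0.66, 0.24 to 1.07). MTF1 was therefore lower than both genes that adjoin it, with intervals that do not overlap theirs.

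**Figure D5:**
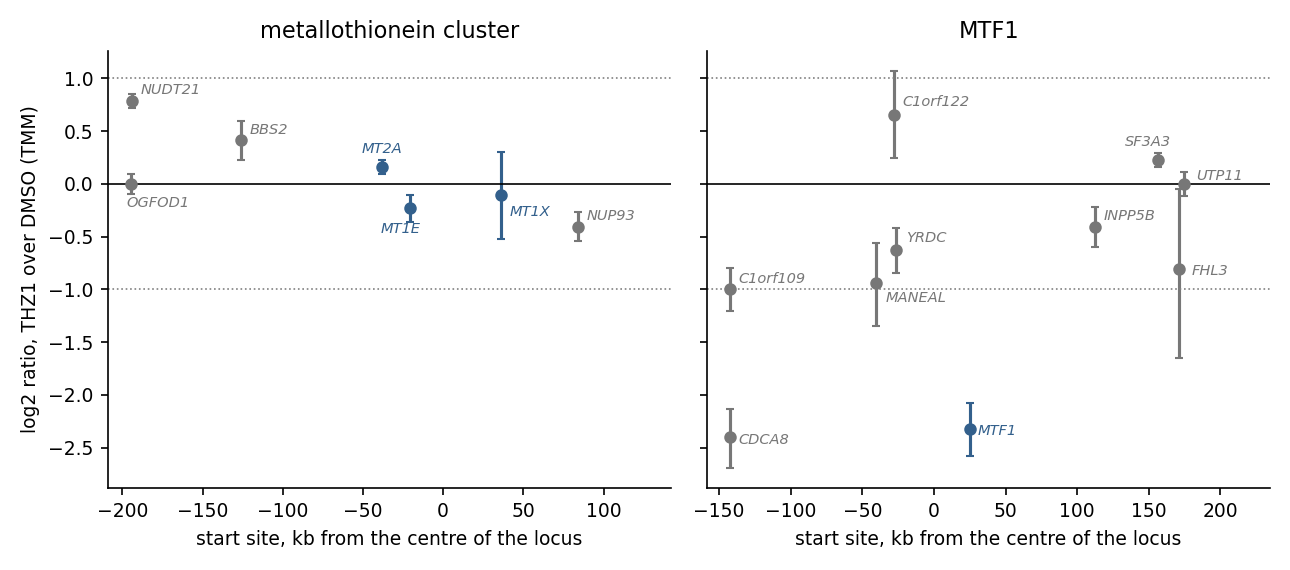
log2 ratio of THZ1 over DMSO (TMM) of the tested coding genes reported here against the position of their start site, in kb from the centre of the metallothionein cluster (left) and of MTF1 (right); members are blue, other genes grey, bars are 95% counting intervals and dotted lines mark 2-fold. All 7 genes on the left stay within 2-fold, while MTF1 and CDCA8 stand alone below −2 on the right.

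Gene span, which differs greatly between the metallothioneins and MTF1, was set beside the ratios. The 134 tested coding genes with a span up to 2 kb, which is the class of MT2A, MT1E and MT1X, had a median ratio of 0.46, with 16.4% lower and 36.6% higher. The 1373 genes of 40 to 60 kb, the class of MTF1, had a median of −0.05, with 19.7% lower and 5.24% higher. Among all tested coding genes 22.0% were lower and 7.61% higher. The 3 metallothioneins thus had ratios below the median of their class and MTF1 one far below that of its own.

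Genes with nearly the same ratio were found for each tested member, and 2 libraries give only 1 ratio as a measure of likeness. Among coding genes with a mean level within 2-fold of the member's, 146 of 1503 had a ratio within 0.1 of that of MT2A, and the nearest were ELK3, PSMD11 and SPIN1. For MT1E the number was 257 of 3564 (nearest SLC35F2, PCGF3 and SMARCB1) and for MT1X 168 of 2296 (nearest ACOT8, DAW1 and PCYT2). For MTF1 it was 58 of 3877, with the histone methyltransferase gene SETD1A (564 and 78 counts), PMEPA1 (1744 and 242) and the zinc finger gene ZNF778 (963 and 134) nearest.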

How the data were processed

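Per the labels' protocols, TRIzol was used to extract RNA from T24/R cells and a KAPA mRNA HyperPrep kit to build the libraries, 1 for each group. The deposited unit is the raw count of reads for a gene, not normalized by the authors, as the whole numbers show. Trimmomatic 0.38, HISAT2 2.1.0, featureCounts 1.6.0 and GRCh38 are named in the submitters' processing notes. Annotation release and strand setting: not given in the sources used here.

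Of 58884 Ensembl IDs, 58472 had a symbol in the symbol table and 58611 were found in GENCODE 29, the source of coordinates and lengths. TMM factors (edgeR 4.0.16, R 4.3.3) over genes reaching 30 counts in a library gave effective library sizes of 22049153 (DMSO) and 15320940 (THZ1). Before the log2 ratio 0.5 was added to counts. The 95% interval of a ratio comes from the THZ1 share of the counts of both libraries (Clopper-Pearson). Intervals for 1 library are exact Poisson intervals, and those of a change in the ratio of 2 genes are exact conditional intervals of an odds ratio. There are no molecular identifiers, and reads are then not independent molecules, so intervals and floors cover counting error only. The calls were checked on simulated counts that held counting error only, at known library sizes. That check cannot show the effect of variation between cultures or of an error in scaling.

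The text names the 7 genes, the other metallothioneins, list members past 2-fold or with the largest ratios at 100 or more counts, coding neighbours within 200 kb and the 3 genes nearest in ratio. Of the coding neighbours, 1 is not reported here and is left out of their counts and median. Further list members and the markers are given to complete their lists and were chosen after their values were seen. The genes and lists were chosen with earlier results of these data known. Alternatives were other scalings (DESeq2 1.42.0 size factors among them), count minimums of 1 and 100, 5 added to each count, thinning, a stricter bound and coding genes only. Calculations ran in Python 3.11.15 with scipy 1.17.1, numpy 2.4.6 and pandas 2.3.3, and figures in matplotlib 3.10.9.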

Additional observations from a re-analysis of the deposited data

How the results depend on the processing

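Scaling decided the position of the metallothioneins relative to 0. With total counts the log2 ratios were −0.36 for MT2A, −0.75 for MT1E, −0.62 for MT1X, −2.84 for MTF1 and −0.44 for the summed metallothionein counts. On the mitochondrially encoded mRNAs they were −1.53, −1.92, −1.80, −4.01 and −1.62, and 4 of the 7 genes were then called lower. The sum without MT2A had a ratio of −0.22. With DESeq2 size factors, the upper quartile, 5 added to each count, thinned libraries and count minimums of 1 and 100, the ratios of the 4 tested genes stayed within their counting intervals, and MTF1 alone was lower, also under the stricter bound and with coding genes only. On the mitochondrial reference the lower genes numbered 7 of the MTF1-linked list, 8 of the cofactors and other regulators, 5 SLC30 and 6 SLC39. Of the chromosomal neighbours, 3 of the metallothionein cluster and 9 of MTF1 were then lower. Of all tested genes, 34.2% were lower and 2.95% higher with total counts, and 80.3% and 0.706% on the mitochondrial reference. No paired analysis was possible because each group has 1 library, and for the same reason no library could be left out. Depth limits the genes with 0 or 1 count and widens the interval of MT1X.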

Other observations

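Copper handling, the other metal service of metallothioneins, was listed beside zinc. Of 12 genes, 10 were tested, of which 1 was lower, 4 higher and 5 neither, with a median log2 ratio of 0.64. Of all tested genes 21.3% were lower and 9.70% higher, with a median of −0.03. COX17, a copper chaperone of mitochondria, had 443 counts in DMSO and 997 in THZ1 (1.69, 1.53 to 1.86). SOD1, the copper and zinc superoxide dismutase gene, had 3604 and 6327 counts (1.34), COMMD1, a regulator of copper export, 132 and 218 (1.25), and ATOX1, the cytosolic copper chaperone gene, 357 and 513 (1.05). With total counts only COX17 of these was called higher, beside 2.95% of all tested genes. On the mitochondrial reference 0 copper genes were higher and 5 of the 10 lower. Of all tested genes 0.706% were then higher and 80.3% lower, so the copper genes were lower less often. With the stricter bound 2 were higher and 0 lower. Of all tested genes 5.38% were higher with that bound, and the share called lower also fell below 21.3%. The exporter gene ATP7B was lower (207 and 69 counts, −1.05), a call lost with 5 added to each count, while SLC31A1, the copper importer that also carries cisplatin, had a ratio of 0.06 (−0.04 to 0.17) and −0.45 with total counts.

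Other genes that respond to metals and oxidants were divided. Of 9 listed, 8 were tested, of which 4 were lower and 4 neither (median −0.89), beside 21.3% lower of all tested genes. On the mitochondrial reference all 8 were lower, as were 80.3% of all tested genes. HMOX1, the gene of an inducible enzyme that breaks down haem, had 6675 counts in DMSO and 203 in THZ1 and was 22.8-fold lower (−4.51, −4.72 to −4.31). DNAJB1, a heat shock cochaperone gene, had 2077 and 199 counts (−2.86, −3.08 to −2.65). OSGIN1, an oxidative stress response gene, had 195 and 10 counts (−3.69, −4.84 to −2.85). The cystine importer SLC7A11 (37209 and 30715 counts) and the thioredoxin reductase gene TXNRD1 (23268 and 18815) had ratios of 0.25 and 0.22, which turn to −0.27 and −0.30 with total counts, and GCLM, the gene of the modifier subunit of glutamate-cysteine ligase, one of −0.12 (17484 and 11143 counts). HSPA1A (−0.46) and HSPA1B (−1.32) are near-identical copies, and their separate values are uncertain.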
